A study of Mus musculus with 12 samples.

Results

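Brain tumours in mice were examined for 9 genes of the ligands and receptors that tune T cells or hold back phagocytes, chosen by name among the 24054 gene rows of the table. They were Cd274, Pdcd1lg2, Cd276, Cd80 and Cd86, which encode the B7 family ligands PD-L1, PD-L2, B7-H3, CD80 and CD86, the galectin gene Lgals9 with the receptor gene Havcr2, and Cd47 with its receptor gene Sirpa. RNA was sequenced from tumours that grew after cells of the mouse line ms7080 were injected into the striatum of female C57BL/6 mice (the protocol text calls the injected cells BC cells), and tumours were taken once the animals showed symptoms. There were 4 groups of 3 libraries each, and the labels count 3 mice a group. The parabiosis group was 16-month-old mice surgically joined to a second mouse of an age that the sources used here do not state. The NMN group was 16-month-old mice given nicotinamide mononucleotide, a precursor of NAD, at 300 mg/kg/day. The old group was untreated 16-month-old mice from an ageing colony, and the young group was untreated 2-month-old mice from commercial breeders, so age and source cannot be told apart. Every group carried the same injected line.

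Immune checkpoint ligands are surface proteins that a T cell meets on tumour cells and on antigen-presenting cells. PD-L1 and PD-L2 bind PD-1 on T cells and dampen their activation. CD80 and CD86 activate T cells through CD28 and dampen them through CTLA-4. Galectin-9 is a ligand of TIM-3, the product of Havcr2, which is found on exhausted T cells and on microglia and other myeloid cells. CD47 on a target cell binds SIRPα on macrophages and microglia and restrains phagocytosis, and in the brain neurons also carry both proteins. In the RefSeq annotation of GRCm38.p6, Cd274 (chr19:29362107-29388095) and Pdcd1lg2 (chr19:29410919-29472927) lie on the same chromosome, Cd80 (chr16:38457430-38495958), Cd86 (chr16:36568956-36666158) and Cd47 (chr16:49851328-49912503) share another, as do Havcr2 (chr11:46454931-46481255) and Lgals9 (chr11:78962979-78984924), and Cd276 (chr9:58524300-58555033) and Sirpa (chr2:129591042-129632228) stand alone.

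The table held CPM values, the reads of a gene relative to the total of its library, which the authors had scaled with TMM factors. Whole reads recovered from it gave 18566096 to 26779406 reads per library, and 3 reads were worth 0.100 to 0.143 CPM, which is a limit of counting only. In 3 libraries Xist, the transcript of the inactive X chromosome, went against the label female. It was at 1.88 and 2.76 CPM in old replicates 1 and 2 and at 5.33 CPM in young replicate 3, against 164 to 1127 CPM in the other 9 libraries. The Y-linked gene Ddx3y was present in all 12 libraries, at 34.0 to 132 CPM. Young replicate 3 was also the lowest library for 6 of the 9 genes. Differences are given with all libraries and, where they turn or move, without these 3. Markers of the labelled tissue were present, with the 12 glioma and neural progenitor markers summing to 2080 to 3116 CPM in each library. T cell markers summed to 5.24 to 27.0 CPM and B cell markers to 1.75 to 11.2 CPM.

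Cd274, the gene of PD-L1, had 50.9, 21.2 and 15.8 CPM in the parabiosis libraries, 9.82, 15.7 and 8.22 CPM in the NMN libraries, 31.4, 31.6 and 8.96 CPM in the old libraries and 18.1, 12.95 and 6.35 CPM in the young libraries. The highest value was in parabiosis replicate 1, the next were old replicates 1 and 2, and the lowest was young replicate 3. Means were 29.3 ± 18.9 CPM in parabiosis, 11.3 ± 3.95 CPM in NMN, 24.0 ± 13.04 CPM in old and 12.5 ± 5.90 CPM in the young group (SD, 3 libraries each). Every NMN value was below every parabiosis value, by a narrow margin at 15.7 against 15.8 CPM, while all other pairs of groups overlapped.

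Lgals9, the gene of galectin-9, had 86.7, 34.5 and 43.9 CPM in parabiosis, 27.7, 33.9 and 27.2 CPM in NMN, 49.8, 56.1 and 31.2 CPM in old and 53.1, 41.8 and 23.1 CPM in young tumours. Here too parabiosis replicate 1 was the highest library and young replicate 3 the lowest, and the NMN libraries lay below all 3 parabiosis libraries. The other pairs of groups overlapped. In tissue RNA of this kind, fewer cells of a type and less RNA per cell cannot be told apart, which holds for every level given here.

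Cd86 had 12.8, 8.24 and 4.94 CPM in parabiosis, 5.12, 6.65 and 3.92 CPM in NMN, 8.87, 10.7 and 3.39 CPM in old and 8.58, 9.91 and 3.03 CPM in young tumours. All 4 groups overlapped, and the third replicate was the lowest of each group. Cd80 stayed low, at 0.128 to 1.73 CPM, and reached 1 CPM in 3 libraries, which were parabiosis replicate 1 and young replicates 1 and 2. Its values rested on 3 to 45 reads a library.

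Pdcd1lg2, the gene of PD-L2, was near the limit of detection. Its 12 libraries held 1 to 18 reads each, or 0.0426 to 0.694 CPM, with a median of 0.409 CPM. None reached 1 CPM, so it was the member that did not pass the filter of at least 1 CPM in at least 3 libraries and was not tested. With no filter, the limma differences between groups were between -0.084 and 0.088 on the log2(CPM + 1) scale, a scale on which such low values can hardly move.

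Cd276, the gene of B7-H3, which is known to be expressed by many tumours and by tumour vessels, had another order of libraries than the other B7 genes. It stood at 56.4, 55.5 and 33.9 CPM in parabiosis, 38.8, 33.5 and 50.0 CPM in NMN, 54.2, 50.4 and 40.1 CPM in old and 51.3, 48.7 and 66.9 CPM in young tumours. The highest library was young replicate 3, the lowest for 6 of the 9 genes, and no pair of groups was separated.

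Havcr2, the gene of TIM-3, had 11.6, 6.91 and 7.18 CPM in parabiosis, 7.59, 7.00 and 8.34 CPM in NMN, 8.77, 10.1 and 7.30 CPM in old and 7.04, 6.57 and 5.29 CPM in young tumours. All old libraries were above all young libraries, and this was the only one of the 8 genes tested for which these 2 groups did not overlap. Over all 15232 genes tested, 6.95% were higher in old without overlap, so 1 of 8 is not far from the background.

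**Figure D1:**
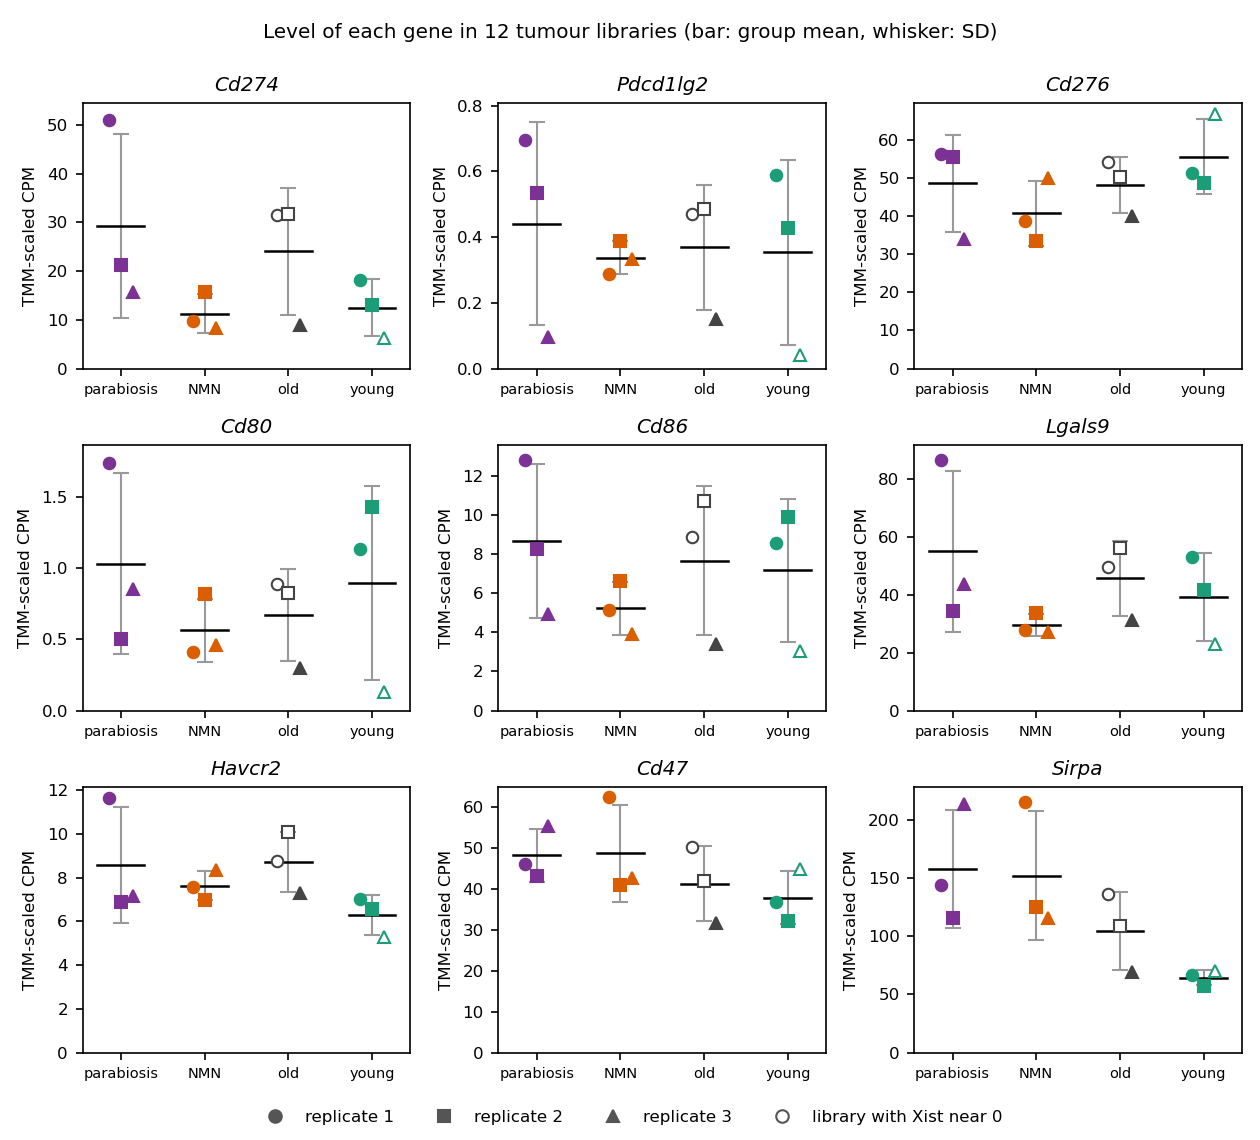
Level of each of the 9 genes in TMM-scaled CPM (vertical axis) in the parabiosis, NMN, old and young groups, with 1 symbol per library, the group mean as a bar and the SD as a whisker (n = 3). Open symbols are the 3 libraries with Xist near 0. Parabiosis replicate 1 is the highest and young replicate 3 the lowest library for Cd274, Pdcd1lg2, Cd80, Cd86, Lgals9 and Havcr2, while Sirpa in NMN and parabiosis lies above all young libraries.

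The phagocytosis brake genes had another order of libraries. Sirpa, the gene of the CD47 receptor, had 144, 116 and 214 CPM in parabiosis, 216, 125 and 115 CPM in NMN, 136, 108 and 69.5 CPM in old and 66.3, 57.1 and 69.9 CPM in young tumours. The young libraries were tightly grouped and lay below all parabiosis and all NMN libraries, and only old replicate 3 reached down to them. Group means were 158 ± 50.5 CPM in parabiosis, 152 ± 55.2 CPM in NMN, 105 ± 33.6 CPM in old and 64.4 ± 6.64 CPM in the young group (SD, 3 libraries each). Neighbours in this order were not separated beyond their spread. Sirpa resembles the Sirpb1 genes in sequence, and the authors' tool RSEM divides reads between similar transcripts. Sirpb1a was at 0.267 CPM or lower in every library.

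Cd47, the ligand, had 46.1, 43.0 and 55.4 CPM in parabiosis, 62.3, 41.0 and 42.7 CPM in NMN, 50.2, 41.8 and 31.7 CPM in old and 36.7, 32.0 and 44.7 CPM in young tumours. It varied 1.96-fold between its highest library, NMN replicate 1, and its lowest, old replicate 3. No pair of groups was separated.

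Differences between groups were tested with limma on log2(CPM + 1), with all genes fitted together and p-values adjusted by the Benjamini-Hochberg method over 15232 genes. Of 48 tests (8 genes in 6 comparisons), 1 passed an adjusted p of 0.05. Sirpa rose in NMN tumours against young tumours, by 1.17 ± 0.30 on the log2 scale (SE, adjusted p = 0.0428, higher in 3 of 3 libraries). In that comparison 1 of 8 genes was called, beside 8.15% of all genes, which is close to the background. Sirpa was also the 1 of 8 that was higher without overlap, beside 18.5% of all genes, and the 1 of 8 at an unadjusted p under 0.05, beside 25.7%. A difference above 0 was found for 3 of 8, beside 48.3%. The call was near the threshold. It was lost when any of 7 libraries was left out, with adjusted p = 0.137 without young replicate 1, 0.165 without young replicate 2, 0.0653 without old replicate 2, 0.148 without NMN replicate 1, 0.0538 without NMN replicate 2, 0.0678 without NMN replicate 3 and 0.0617 without parabiosis replicate 1. The difference was 0.89 without NMN replicate 1, and edgeR on the recovered reads gave adjusted p = 0.0585 where DESeq2 gave 0.00375. Over all genes, the 1242 limma calls of NMN against young became 0 without young replicate 1, young replicate 2 or NMN replicate 3, so the other calls of this comparison named here were lost with them too. There were 2 calls without NMN replicate 1, 478 without old replicate 2, 771 without parabiosis replicate 1, 1953 without parabiosis replicate 3 and 2129 without young replicate 3, and edgeR made 93.

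Against the same young libraries, parabiosis tumours had a Sirpa difference of 1.24 ± 0.30 (SE), which did not pass the limma test (adjusted p = 0.136). It was the 1 gene of 8 that was higher in parabiosis than in young tumours without overlap, beside 13.7% of all genes, and 0% of all genes were called in that comparison. It was also the 1 of 8 at an unadjusted p under 0.05, beside 18.1%, and 7 of 8 were above 0, beside 51.6%. DESeq2 called it, with adjusted p = 0.0080. The NMN and parabiosis comparisons share the young libraries, so the values are given side by side only. Without the 3 libraries with Xist near 0, the Sirpa difference was 1.23 in NMN against young (adjusted p = 0.0558) and 1.30 in parabiosis against young (adjusted p = 0.0851).

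Neuron markers were highest in NMN replicate 1 and parabiosis replicate 3, which were also the highest for Sirpa. Young replicate 3 went another way. Its neuron markers summed to 1712 CPM, above old replicates 2 and 3 at 1473 and 1422 CPM, but its Sirpa level was below that of old replicate 2. Summed over 12 neuron markers, the libraries held 1868 to 3619 CPM in parabiosis, 2252 to 4630 CPM in NMN, 1422 to 1940 CPM in old and 823 to 1712 CPM in young tumours, with 0 of the markers at 0. Of these markers, 10 of 12 rose in NMN against young tumours in limma, among them the inhibitory neuron enzyme gene Gad1 (2.52, adjusted p = 0.0318) and the neurofilament gene Nefl (2.70, adjusted p = 0.0275). Of 10 microglia markers, 4 rose in the same comparison, including P2ry12 (1.40, adjusted p = 0.0289) and Cx3cr1 (0.91, adjusted p = 0.0303). Of the 10 mature oligodendrocyte markers, 6 rose. Of the 10 astrocyte markers, 3 rose, among them Gja1 (2.75, adjusted p = 0.0206) and Gjb6 (3.11, adjusted p = 0.0275). Over all genes 8.15% were called in this comparison. Of the 12 glioma and neural progenitor markers, Nes and Sox2 fell, by 0.72 and 0.50 on the log2 scale (adjusted p = 0.0496 and 0.0322). Their part in the Sirpa difference was not tested.

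Untreated old tumours did not differ from untreated young tumours past the threshold in any of the 8 genes, and 0% of all 15232 genes were called in limma. At an unadjusted p under 0.05 there were 0 of 8 genes, beside 6.96%, and edgeR called 0 and DESeq2 72 of all genes. The 8 genes had a median log2 difference of 0.18, beside 0.015 over all genes, with 6 of 8 above 0, beside 53% of all genes. Sirpa was at 0.65 ± 0.30 (adjusted p = 0.722), Cd274 at 0.81 ± 0.55 (adjusted p = 0.817) and Havcr2 at 0.41 ± 0.20 (SE, adjusted p = 0.724). Cd274, Cd86 and Lgals9 changed sign when the 3 libraries with Xist near 0 were left out, which leaves 1 old and 2 young libraries. Cd274 was then at -0.71, Cd86 at -1.22 and Lgals9 at -0.58, each with a positive difference when all libraries were used (0.81, 0.090 and 0.25). The Havcr2 difference shrank to 0.090 and that of Sirpa to 0.17.

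In NMN against untreated old tumours, none of the 8 genes passed the limma threshold, and 0% of all genes did. At an unadjusted p under 0.05 there were 0 of 8, beside 10.3%, and over all genes edgeR called 0 and DESeq2 46. The median over the 8 was -0.20, beside 0.011 over all genes, with 2 of 8 above 0, beside 51.6%. The lowest differences were those of Cd274 at -0.89 ± 0.55 (adjusted p = 0.519) and Lgals9 at -0.57 ± 0.37 (SE, adjusted p = 0.524), while Sirpa was at 0.53 ± 0.30 and Cd47 at 0.23 ± 0.21. Of the 8 genes, 0 were separated between these groups, beside 19.5% of all genes in either direction. Without the low-Xist libraries 1 old library remained, and Cd274 was at 0.25, Cd86 at 0.48 and Lgals9 at -0.079. Sirpa was then at 1.06 and Cd47 at 0.58 (adjusted p = 0.678 for both).

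Parabiosis against untreated old tumours gave no call among the 8 genes in limma, as for 0% of all genes, and 0 of 8 at an unadjusted p under 0.05, beside 5.61%. None of the 8 was separated between the groups, beside 13.7% of all genes in either direction. Over all genes edgeR called 0 and DESeq2 44. The median of the 8 was 0.21, beside 0.021 over all genes, with 6 of 8 above 0, beside 54.1%. Sirpa was at 0.59 ± 0.30 (SE, adjusted p = 0.898) and the other 7 lay between -0.046 and 0.29. Left with old replicate 3 alone as the untreated group, the differences were 1.43 for Cd274, 1.12 for Sirpa and 1.06 for Cd86 (adjusted p = 0.617 for each).

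Between the treatments, 0 of 8 genes had a difference above 0 in NMN against parabiosis tumours, beside 54.1% of all genes. The median was -0.29, beside 0.026 over all genes, and 0 of 8 were called in limma, beside 0% of all genes. At an unadjusted p under 0.05 there were 0 of 8, beside 9.65%, and over all genes edgeR called 0 and DESeq2 224. None of the 3 libraries with Xist near 0 takes part in the difference itself. Cd274 was at -1.18 ± 0.55 (adjusted p = 0.529) and Lgals9 at -0.77 ± 0.37 (SE, adjusted p = 0.535), and these 2 of 8 were lower without overlap, beside 7.83% of all genes. Without parabiosis replicate 1 the differences were -0.70 for Cd274 and -0.39 for Lgals9, and the median of the 8 was -0.11. Cd47 stood at -0.0036 ± 0.21 and Sirpa at -0.064 ± 0.30 (SE). An F test over the 4 groups in limma called 0 of 15232 genes, with 2780 at an unadjusted p under 0.05, and Sirpa had its smallest adjusted p among the 8, at 0.146.

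**Figure D2:**
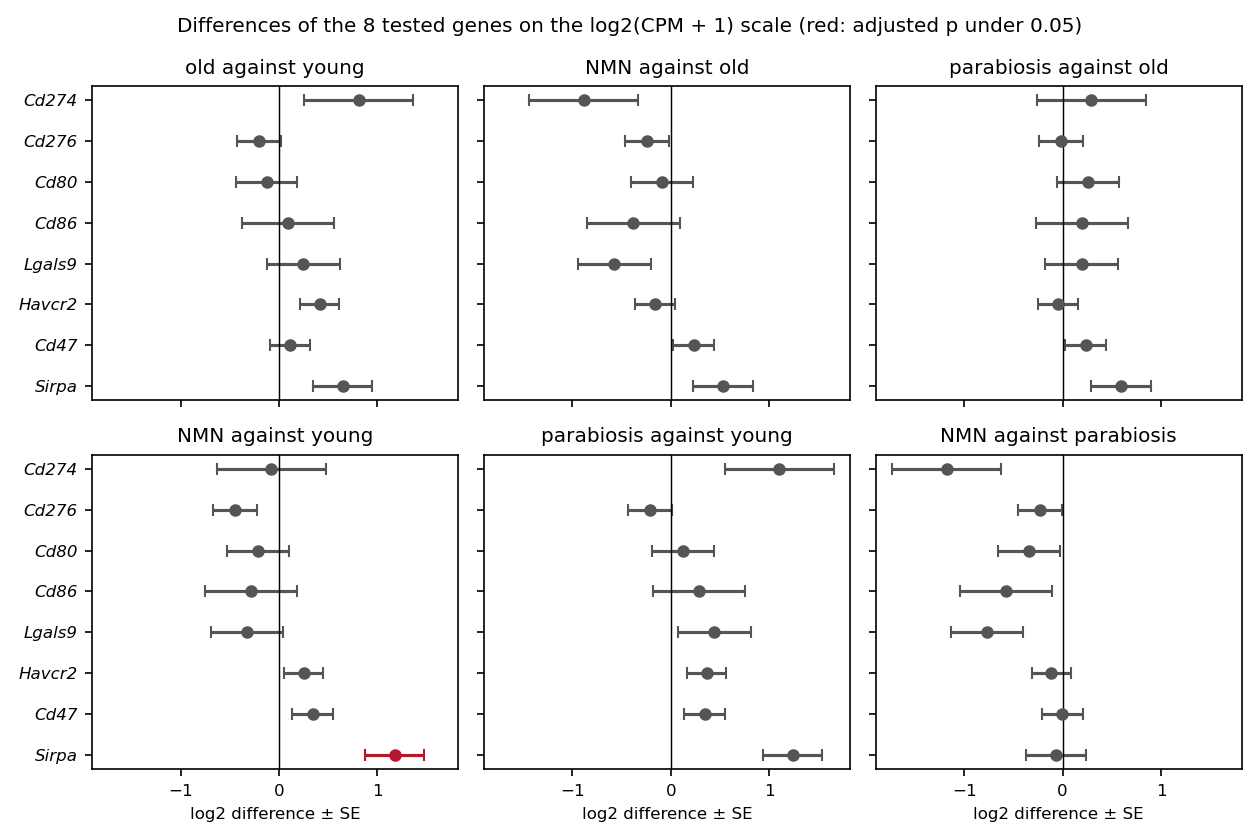
Difference on the log2(CPM + 1) scale (horizontal axis) for the 8 genes tested, in 6 comparisons, each named with the first group minus the second. Points are limma estimates and whiskers are 1 SE either way, with red for an adjusted p under 0.05. The single red point is Sirpa in NMN against young at 1.17, and in NMN against parabiosis all 8 points lie at or left of 0.

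Across the 12 libraries the genes fell into patterns of variation that cut across the groups. Cd274 and Lgals9 varied most closely together (Pearson r = 0.91, permutation p = 1e-05, the smallest that 100000 permutations can give, and Spearman rho = 0.92, p = 5e-05; adjusted over 36 pairs p = 0.00036 and 0.0018). The r was 0.81 without the 2 libraries farthest from the median of Cd274, 0.89 without the 3 libraries with Xist near 0, and 0.91 for deviations from the group means. Cd274 and Cd86 had r = 0.88 and rho = 0.85 (permutation p = 0.00018 and 0.00072, adjusted p = 0.00171 and 0.0053), with r = 0.80 without the 2 farthest libraries. Among the 5 genes Cd274, Lgals9, Cd86, Cd80 and Pdcd1lg2, all pairs had r of 0.70 to 0.91, with Pdcd1lg2 and Cd80 resting on few reads. Without the 2 farthest libraries, r was 0.45 for Cd274 with Cd80 and 0.56 for Cd274 with Pdcd1lg2, so the strength of these relations depends on those samples. For the same pairs r was 0.72 and 0.69 without the low-Xist libraries, and 0.83 and 0.87 for deviations from group means.

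Havcr2 followed this group less firmly. With Lgals9, its ligand gene, it had r = 0.74 but rho = 0.48 (permutation p = 0.00649 and 0.115, adjusted p = 0.0225 and 0.319). The r was 0.36 without the 2 farthest libraries, so the strength of the relation depends on those samples. It was 0.60 without the low-Xist libraries and 0.88 for deviations from group means.

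Cd47 and Sirpa, ligand and receptor, formed a pattern of their own, with r = 0.89 and rho = 0.86 (permutation p = 0.00019 and 0.00061, adjusted p = 0.00171 and 0.0053). The r was 0.85 without the 2 libraries farthest from the median of Cd47, 0.93 for deviations from group means and 0.96 without the low-Xist libraries. NMN replicate 1 and parabiosis replicate 3 were the highest libraries for both genes. Neither went with Cd274, at r = 0.13 for Cd47 and 0.28 for Sirpa. Cd276 had r between -0.44 and 0.27 with every other gene of the 9. Without the low-Xist libraries these values ran from -0.40 with Sirpa to 0.77 with Pdcd1lg2. They ran from -0.22 to 0.68 with the same genes without the 2 farthest libraries. For deviations from group means they ran from -0.17 with Cd80 to 0.34 with Havcr2. How far Cd276 stood apart thus depends on those samples.

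**Figure D3:**
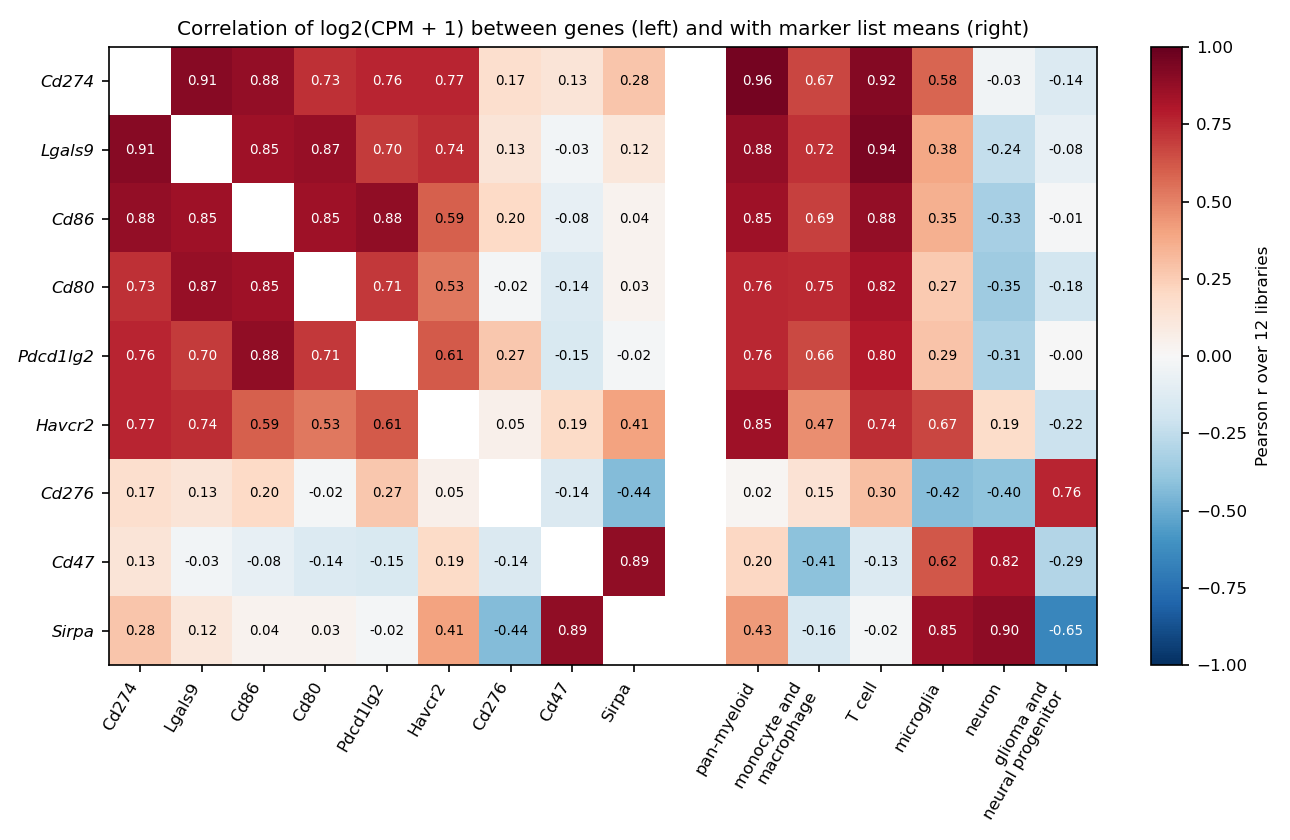
Pearson r over the 12 libraries of log2(CPM + 1) between pairs of the 9 genes (left block) and between each gene and the mean of 6 marker lists (right block), with colour from -1 (blue) to 1 (red). Cd274, Lgals9, Cd86, Cd80 and Pdcd1lg2 form a red block with one another and with the pan-myeloid and T cell markers. Cd47 and Sirpa are red with each other and with the neuron markers. The microglia markers are red with Sirpa (0.85), Havcr2 (0.67), Cd47 (0.62, but rho 0.36) and Cd274 (0.58), and the other genes range from -0.42 for Cd276 to 0.38 for Lgals9.

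Set against markers of cell types, in 54 relations of the 9 genes with 6 lists, Cd274 tracked the mean of 12 pan-myeloid markers closely. It had r = 0.96 and rho = 0.96 (permutation p = 1e-05 for both, the smallest possible, adjusted p = 0.00054 for both). The r was 0.95 without the 2 farthest libraries, 0.96 without the low-Xist libraries and 0.97 for deviations from group means. Pan-myeloid markers summed to 301 to 472 CPM in parabiosis, 253 to 288 CPM in NMN, 209 to 371 CPM in old and 157 to 274 CPM in young tumours. Lgals9 went with the 7 T cell markers at r = 0.94 and rho = 0.90 (permutation p = 4e-05 and 0.00015, adjusted p = 0.00072 and 0.0036), with r = 0.90 without the 2 farthest libraries. Cd274 also went with the T cell markers, at r = 0.92, and Lgals9 with the pan-myeloid markers, at r = 0.88 (permutation adjusted p = 0.00072 and 0.0014). Both genes thus went with both lists. T cell markers summed to 7.84 to 27.0 CPM in parabiosis, 5.28 to 9.80 CPM in NMN, 7.98 to 17.1 CPM in old and 5.24 to 14.03 CPM in young tumours, with 0 of them at 0 in all libraries. The part of these cells in the levels of Cd274 and Lgals9 was not tested.

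Set relative to the mean log2(CPM + 1) of the pan-myeloid markers in the same library, Lgals9 stood at 0.74, 0.79 and 0.69 in NMN tumours, against 0.95, 1.09 and 1.12 in old tumours. The NMN libraries were lower without overlap on this relative scale, by -0.31 ± 0.058 (SE, 3 libraries each), beside 0.794% of all genes. The parabiosis libraries, at 1.37, 0.72 and 1.09, overlapped both groups. Of the 9 genes on this scale, Sirpa was the 1 higher in NMN than in old tumours without overlap, by 0.79 ± 0.34 (SE), beside 9.09% of all genes, and the other 7 overlapped. Genes of the 9 were separated on this scale in every other comparison except parabiosis against old. Examples were Lgals9, lower in NMN than in young tumours (-0.52 ± 0.12 SE), and Havcr2, higher in NMN than in parabiosis tumours. Cd80 and Pdcd1lg2 were lower in old than in young tumours, but these low genes mostly followed the subtracted mean. That mean was 4.71, 4.74 and 3.89 in old and 4.28, 4.20 and 3.52 in young tumours. Before subtraction the 2 genes differed by -0.13 and 0.028. The share of all genes is not given for those comparisons, so these separations are not read as a result about the genes. The measure was chosen with other results known and carries no test.

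Sirpa, which microglia, macrophages and neurons are known to express, had r = 0.90 and rho = 0.87 with the neuron markers (permutation p = 0.00012 and 4e-04, adjusted p = 0.0013 and 0.0043). The r was 0.88 without the 2 farthest libraries and 0.70 for deviations from group means. Sirpa also went with the microglia markers, at r = 0.85 and rho = 0.67 (permutation p = 0.00053 and 0.021, adjusted p = 0.0036 and 0.064). That r was 0.79 without the 2 farthest libraries, 0.91 without the low-Xist libraries and 0.68 for deviations from group means. With the pan-myeloid markers Sirpa had r = 0.43 and rho = 0.36 (permutation p = 0.167 and 0.247, adjusted p = 0.33 and 0.46), with r = 0.26 without the 2 farthest libraries. Cd47 also went with the neuron markers, at r = 0.82 and rho = 0.72 (permutation p = 0.00137 and 0.0101, adjusted p = 0.0067 and 0.039), and r was 0.80 without the 2 farthest libraries.

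Sirpa went against the glioma and neural progenitor markers, at r = -0.65 and rho = -0.59 (permutation p = 0.0194 and 0.0458, adjusted p = 0.048 and 0.12). That r was -0.45 without the 2 farthest libraries and -0.030 for deviations from group means. Cd276 went with these markers, at r = 0.76 and rho = 0.63 (permutation p = 0.00325 and 0.0323, adjusted p = 0.0135 and 0.092). It fell to r = 0.48 without the 2 farthest libraries, among them young replicate 3, so the strength of the relation depends on those samples. The r was 0.63 without the low-Xist libraries and 0.80 for deviations from group means. The r of Cd276 with the pan-myeloid markers was 0.018. It was 0.36 without the 2 farthest libraries, 0.40 without the low-Xist libraries and 0.15 for deviations from group means.

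**Figure D4:**
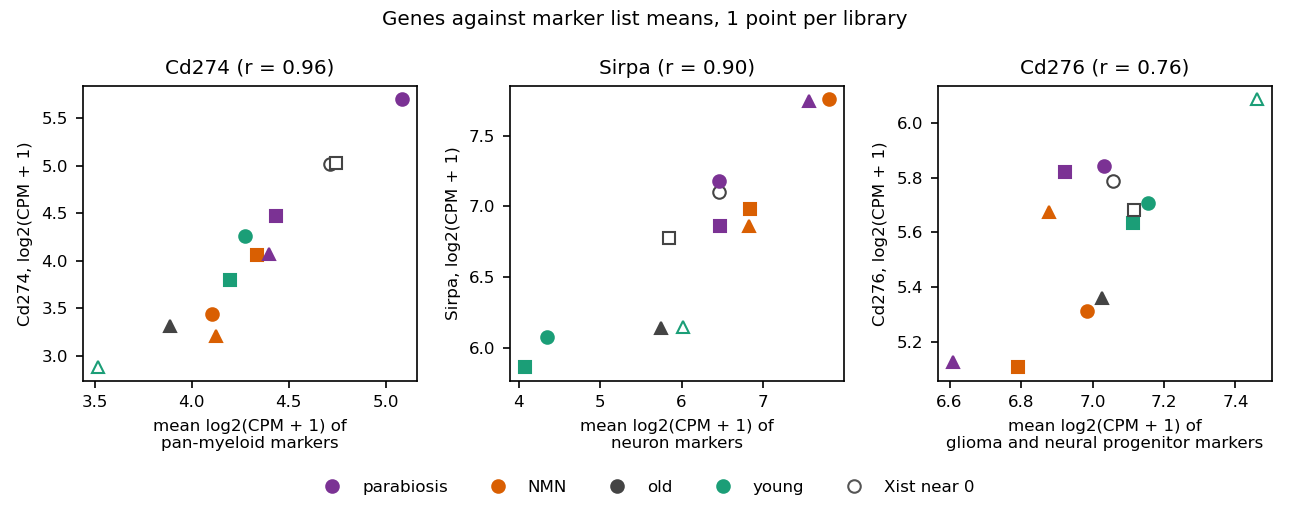
Level of Cd274, Sirpa and Cd276 (vertical axes, log2(CPM + 1)) against the mean log2(CPM + 1) of pan-myeloid, neuron and glioma and neural progenitor markers (horizontal axes), with 1 point per library. Circles, squares and triangles are replicates 1, 2 and 3, and open symbols are libraries with Xist near 0. Cd274 lies close to a line with r = 0.96, and the young libraries overlap the other groups for Cd274. For Sirpa, young replicates 1 and 2 are at the lower left, while young replicate 3 is low but farther right.

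The stretch before the start of a gene is where factors that respond to interferon or mark myeloid cells bind. It is shown for Cd274, Lgals9 and Havcr2, which varied with the pan-myeloid markers, and for Cd47, which did not (r = 0.20). Havcr2 did so less firmly, at r = 0.85 but rho = 0.53 (permutation adjusted p = 0.0046 and 0.19), with r = 0.57 without the 2 farthest libraries. Cd80 and Pdcd1lg2, at r = 0.76 for both, varied with these markers too and are not shown. The RefSeq promoter table for GRCm38.p6 held 7 of the 9 genes. The 250 bases upstream of the start were searched on both strands for 3 motifs. They were GAAANNGAAA, the core of the interferon-stimulated response element (ISRE), GGAAGT, a core of the myeloid factor PU.1, and TTCNNNGAA, the interferon gamma activated site (GAS). These were found in 2.98%, 19.7% and 7.02% of 32851 promoters of the same length. GAS was found in none of the windows of the 7 genes. Each sequence runs 5′ to 3′ on the strand of the gene, and capitals mark matches. Cd274 lies at chr19:29367188-29367437 on the plus strand, within the annotated gene, Lgals9 at chr11:78984925-78985174 on the minus strand, Havcr2 at chr11:46454681-46454930 on the plus strand and Cd47 at chr16:49855404-49855653 on the plus strand, also within the annotated gene.
Cd274: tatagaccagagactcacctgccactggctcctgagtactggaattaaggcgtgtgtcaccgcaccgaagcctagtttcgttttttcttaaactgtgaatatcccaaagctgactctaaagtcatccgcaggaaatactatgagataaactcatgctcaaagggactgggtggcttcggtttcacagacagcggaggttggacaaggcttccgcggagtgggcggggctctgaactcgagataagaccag
Lgals9: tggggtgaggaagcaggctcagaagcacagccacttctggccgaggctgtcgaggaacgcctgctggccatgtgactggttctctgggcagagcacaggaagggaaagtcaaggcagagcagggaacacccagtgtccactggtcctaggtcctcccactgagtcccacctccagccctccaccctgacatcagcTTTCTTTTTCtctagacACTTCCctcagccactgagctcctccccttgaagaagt
Havcr2: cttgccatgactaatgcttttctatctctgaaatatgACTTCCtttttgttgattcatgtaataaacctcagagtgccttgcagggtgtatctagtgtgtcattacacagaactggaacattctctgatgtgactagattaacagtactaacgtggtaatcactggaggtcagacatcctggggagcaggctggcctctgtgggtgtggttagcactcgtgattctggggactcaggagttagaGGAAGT
Cd47: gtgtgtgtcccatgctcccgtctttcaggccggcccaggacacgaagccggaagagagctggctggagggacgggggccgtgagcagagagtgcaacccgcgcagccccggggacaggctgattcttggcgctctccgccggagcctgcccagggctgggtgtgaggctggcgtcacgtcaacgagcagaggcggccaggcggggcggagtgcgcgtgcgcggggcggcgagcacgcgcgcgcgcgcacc
Lgals9 held an ISRE core at -55 to -46 from the start and a PU.1 core at -38 to -33, and Havcr2 held PU.1 cores at -213 to -208 and at -6 to -1. The windows of Cd274 and Cd47 held none of these letters, and neither did those of Cd276, Cd80 and Pdcd1lg2, which are not shown. A match describes the sequence only, and nothing here measured binding.

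The receptors on the T cell side were scarce. Pdcd1, the gene of PD-1, had 1.16, 0.734 and 0.475 CPM in parabiosis, 0.330, 0.506 and 0.0834 CPM in NMN, 1.41, 1.64 and 0.188 CPM in old and 0.817, 0.524 and 0.0426 CPM in young tumours. Like its ligand gene Cd274, it was lowest in young replicate 3 and high in old replicates 1 and 2. Its highest library was old replicate 2, while that of Cd274 was parabiosis replicate 1. The value in young replicate 3 was 1 read, and that in NMN replicate 3 was also below 3 reads (0.125 CPM there). Ctla4 was at 0.0753 to 1.54 CPM and Cd28 at 0.125 to 1.73 CPM over the 12 libraries. Of the 11 checkpoint and costimulatory receptor genes, 8 were tested and 0 were called in any of the 6 limma comparisons. Their median difference was 0.33 in old against young tumours, with 8 of 8 above 0, beside 0.015 and 53% over all genes. In NMN against old tumours it was -0.38, with 0 of 8 above 0, beside 0.011 and 51.6%. Without the 3 libraries with Xist near 0 both medians changed sign, to -0.41 (2 of 8 above 0) in old against young and 0.14 (6 of 8 above 0) in NMN against old.

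Among 19 other costimulatory and checkpoint ligands, 11 were tested, and 2 were called, both in NMN against young tumours, where 8.15% of all genes were called. Pvr, the gene of CD155, a ligand of TIGIT, fell, with 13.04, 16.8 and 16.2 CPM in NMN against 26.9, 26.1 and 22.1 CPM in young tumours (-0.67 ± 0.16 SE, limma adjusted p = 0.0359). The old libraries had 30.4, 25.4 and 19.8 CPM and the parabiosis libraries 22.8, 26.3 and 25.1 CPM, so the NMN libraries were below all 9 others. Against old tumours the difference was also -0.67, with an adjusted p of 0.480. Ceacam1, an inhibitory ligand and receptor, rose, with 3.51, 3.70 and 5.34 CPM in NMN against 1.91, 2.095 and 2.39 CPM in young tumours (0.71 ± 0.18 SE, limma adjusted p = 0.0416), a value made uncertain by its close relative Ceacam2.

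Of 12 other phagocytosis brakes and their signalling genes, 9 were tested and 0 were called in limma in any comparison. Lilrb4, an inhibitory receptor of myeloid cells, had 5.61, 6.53 and 5.71 CPM in NMN, against 11.2, 12.6 and 8.24 CPM in old tumours. The groups were separated, and the difference was -0.73 ± 0.21 (SE, adjusted p = 0.480). Cd24a, whose product signals to Siglec-10 in humans, had 69.7, 101 and 78.5 CPM in parabiosis, against 130, 99.0 and 170 CPM in old tumours, which overlapped (-0.66 ± 0.22 SE, adjusted p = 0.837).

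On the side that promotes phagocytosis, 19 of 20 receptor and bridging genes were tested, and 4 were called, all in NMN against young tumours, beside 8.15% of all genes. Gas6, which bridges phosphatidylserine to the TAM receptors, rose, with 37.3, 18.2 and 31.4 CPM in NMN against 6.72, 6.00 and 15.6 CPM in young tumours (1.58 ± 0.37 SE, limma adjusted p = 0.0332). Mertk, a TAM receptor, rose as well, with 40.1, 31.2 and 30.9 CPM in NMN against 18.8, 17.7 and 15.1 CPM in young tumours (0.94 ± 0.25 SE, limma adjusted p = 0.0451). Elmo1, a signalling adaptor of engulfment, rose by 1.18 ± 0.28 (SE, adjusted p = 0.0356), and the integrin gene Itgav fell by 0.40 on the log2 scale (SE 0.11, adjusted p = 0.0440). The list's median was -0.021 in this comparison, beside -0.014 over all genes, with 9 of 19 above 0. The neuron and microglia markers that rose in the same comparison are given above, and their part was not tested.

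Interferon gamma is a known inducer of PD-L1. Of 15 genes of its signalling path, 14 were tested. In NMN against young tumours Stat3 fell by 0.37 and Socs3 fell by 0.94 on the log2 scale (limma adjusted p = 0.0351 and 0.0400), and none was called in the other 5 comparisons. Stat3 had 163, 153 and 177 CPM in NMN against 209, 204 and 225 CPM in young tumours, and the groups did not overlap. All 14 had a positive difference in parabiosis against old tumours (median 0.25, beside 0.021 over all genes, of which 54.1% were above 0) and all 14 a negative one in NMN against parabiosis tumours (median -0.25, beside 0.026). These 2 comparisons share the parabiosis libraries, in which replicate 1 was the highest for Cd274.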

How the data were processed

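Per the labels' protocols, total RNA was depleted of ribosomal RNA, made into stranded libraries and sequenced as paired ends. Reads were checked and counted with FastQC, RSEM 1.2.15, Bowtie2 2.1.0 and edgeR, and the builds named are GRCm38 and mm10, per the submitters' processing notes. TMM-scaled CPM values by gene symbol were deposited in 1 table. Within each library all values were whole multiples of 1 read (100% at a tolerance of 0.01), which gave 18566096 to 26779406 reads.

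CPM was converted to log2(CPM + 1), which understates changes of low genes. Genes of at least 1 CPM in at least 3 libraries were kept (15232). Limma 3.58.1 (R 4.3.3) fitted 4 group means with a variance trend, and p-values were two-sided and adjusted by Benjamini-Hochberg. All adjusted p-values of differences come from limma unless another tool is named. EdgeR 4.0.16 and DESeq2 1.42.0 on the recovered reads, and a fit without 3 libraries with Xist near 0, were alternatives chosen after seeing the data. The fit was tested on simulated data.

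The 9 genes and the 20 other lists were chosen with earlier results of these data known. Of 225 list entries, 222 had a row, 6 under an older symbol. Genes named beyond the 9 were those called in any comparison and up to 3 per list with the smallest p in the comparisons with old or of old with young, and among these the text gives a selection chosen after the values were seen. Sirpb1a was added for its likeness to Sirpa. Same-numbered libraries deviated together (r over 0.1 in all 3 pairs) for parabiosis with young and for NMN with old. The labels give no batch, and libraries are taken as separate mice, so p-values measure the spread between them.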

Additional observations from a re-analysis of the deposited data

How the results depend on the processing

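Of 808 alternative values for the 48 tested differences, 743 kept their direction and side of the threshold. Another 54, in 24 differences, reversed, none of them of a called difference. In NMN against young, 0 of the 8 genes were called, where 1 was, with no filter on low values (742 genes in all), with at least 1 CPM in all libraries (709), with only the pair fitted (29) and with edgeR (93), and 0 also without the low-Xist libraries. DESeq2 called 72 genes in old against young, 46 in NMN against old, 44 in parabiosis against old, 2367 in NMN against young, 977 in parabiosis against young (1 of the 8) and 224 in NMN against parabiosis. Limma without a trend called 1 gene in NMN against parabiosis.

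Without the 3 low-Xist libraries, the median of the 8 genes was -0.445 in old against young, 0.25 in NMN against old and 0.64 in parabiosis against old, and 2, 327 and 2 genes were called in parabiosis against old, parabiosis against young and NMN against parabiosis. Reversed were Cd274 (-0.71), Cd86 (-1.22), Cd47 (-0.11) and Lgals9 (-0.58) in old against young, Cd274 (0.25), Cd276 (0.0038), Cd80 (0.26), Cd86 (0.48) and Havcr2 (0.056) in NMN against old, Cd276 (0.24) and Havcr2 (0.17) in parabiosis against old, and Cd80 (-0.21) and Cd86 (-0.16) in parabiosis against young. Quantile normalization, which moved the median of all genes by -0.14 in NMN against young and -0.11 in parabiosis against young, reversed Cd86 in old against young (-0.080), Havcr2 in NMN against young (-0.023) and Cd80 in parabiosis against young (-0.19). DESeq2 reversed Cd276 in parabiosis against old (0.0011) and Cd47 in NMN against parabiosis (0.0098). The cause was not tested.

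Leaving out each library in turn gave, for Sirpa in NMN against young, 0.89 to 1.34, with 0 to 1 of the 8 genes and 0 to 2129 genes called. Genes called were 0 to 2 in old against young, 0 to 1 in parabiosis against old, 0 to 701 in parabiosis against young and 0 to 1 in NMN against parabiosis. The median of the 8 was 0.063 to 0.51 in old against young, -0.32 to -0.082 in NMN against old, -0.12 to 0.37 in parabiosis against old and -0.43 to -0.11 in NMN against parabiosis (-0.11 without parabiosis replicate 1). Ranges that crossed 0 in old against young were those of Cd47 (-0.040 to 0.28), Cd80 (-0.47 to 0.088), Cd86 (-0.36 to 0.52) and Lgals9 (-0.085 to 0.50). In NMN against old this held for Cd80 (-0.26 to 0.012), and in NMN against young for Cd274 (-0.46 to 0.23) and Cd80 (-0.55 to 0.00096). In parabiosis against old it held for Cd274 (-0.28 to 0.63), Cd276 (-0.14 to 0.22), Cd86 (-0.24 to 0.50), Havcr2 (-0.26 to 0.075) and Lgals9 (-0.18 to 0.47). In parabiosis against young it held for Cd276 (-0.34 to 0.022), Cd80 (-0.21 to 0.34) and Cd86 (-0.16 to 0.59), and in NMN against parabiosis for Cd47 (-0.19 to 0.10), Havcr2 (-0.24 to 0.10) and Sirpa (-0.34 to 0.18). A group left with 1 library was assumed to vary like the others.

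The replicate numbers are shared between groups, but the labels do not pair them, and the deviations of same-numbered libraries had r from -0.50 to 0.60 in 18 pairs, 10 of them over 0.1. All 3 pairs were over 0.1 for parabiosis with young (0.49, 0.39 and 0.56) and for NMN with old (0.37, 0.21 and 0.31), but not in the other 4 comparisons. With the replicate number as a block, 1376 genes were called in NMN against young, beside 1242 without it, Sirpa kept its call (adjusted p = 0.0404), and 0 of the 8 genes were called in the other 5 comparisons, as without the block, with 0 genes in all called in each of these. Depth limits Pdcd1lg2 and Cd80 in particular.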

Other observations

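For each of the 9 genes, the 3 named genes with the most similar profile over the 12 libraries were looked up among 12928 tested genes (12929 for Cd80 and Pdcd1lg2) of at least 2 CPM on average. They are given by Pearson r with no test. For Cd274 these were C2 (0.98), Dtx3l (0.97) and Itgb2 (0.97), and for Lgals9 Ube2l6 (0.98), Xaf1 (0.97) and Oas1b (0.97). For Cd86 they were H2-M3 (0.99), B2m (0.98) and H2-D1 (0.98), where reads of the histocompatibility genes can be shared between near-identical genes. Cd80 went with Runx3 (0.97), Plbd1 (0.95) and Neurl3 (0.94), and Pdcd1lg2, on few reads, with Hhex (0.96), Rhog (0.94) and Stat5b (0.93). For Havcr2 they were P2ry6 (0.92), Unc13d (0.90) and Serpinb9 (0.89), with Spearman rho of only 0.50 to 0.60. Cd47 went with Exoc6 (0.98), Slc48a1 (0.97) and Anxa11 (0.97), Sirpa with Slc7a8 (0.97), Calm3 (0.97) and Fam189a1 (0.97), and Cd276 with Pcdh15 (0.94), Ghdc (0.93) and Sec24a (0.91). The 12 points are whole-tissue libraries, so r is a description of these libraries only.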
